A study of Mus musculus with 10 samples.

Results

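Smooth muscle cells and pericytes, together called mural cells, wrap the arteries, arterioles and capillaries of brown adipose tissue, and 10 of their marker genes were followed here in mouse interscapular brown fat. The members were chosen by name, as the rows of the deposited expression table for Acta2, Tagln, Myh11, Cnn1, Myl9, Smtn, Lmod1, Notch3, Cspg4 and Mcam, which makes 10 of 26863 genes. The first 7 belong to the contractile apparatus and the last 3 mark the surface of pericytes and other mural cells. The tissue came from PnocCre mice (5 libraries) and Wildtype mice (5 libraries), and in both genotypes it was harvested 1 hour after the animals received clozapine-N-oxide (CNO), a compound that switches on engineered designer receptors. According to the series description, neurons of the medial preoptic area that express PNOC had been activated, in a hypothalamic centre of body temperature control. Not given in the sources used here were the designer receptor, the promoter that drove it, whether Wildtype animals carried it, and the age and sex of the mice. No label states whether each library is a separate animal, and the p-values rest on the spread among these samples, which may be technical.

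Mural cells set the width of small vessels and so the blood flow through a tissue. In smooth muscle, calcium activates myosin light chain kinase, the phosphorylated light chain lets smooth muscle myosin pull on alpha actin, and serum response factor with its partner myocardin drives the genes of this apparatus through a short promoter element, the CArG box. Pericytes carry less of the contractile apparatus, depend on platelet-derived growth factor from the endothelium and on Notch3, and in brown fat line a dense capillary bed that delivers fuel and oxygen and carries heat away.

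The libraries held 21304238 to 29171787 recovered reads, and mitochondrial transcripts took 16.1% to 20.7% of them. The tissue label fitted its markers: Ucp1, the brown fat uncoupling protein, had 64072 ± 4732 normalised read counts in the PnocCre libraries and 98965 ± 11808 in those of Wildtype (mean ± SD, n = 5). The log2 fold change of PnocCre over Wildtype was below 0 for all 12 brown adipocyte markers, and its median was -0.32. Without PnocCre replicate 2, 2 of the 12 lay above 0 and the median was -0.20, and 4 lay above 0 after scaling to all recovered reads (median -0.13). The 22 skeletal muscle markers summed to 11099 to 209518 normalised counts in the PnocCre libraries and 3481 to 29041 in Wildtype, and PnocCre replicate 2 held a lymphocyte marker sum of 11681 against 361 to 923 elsewhere. In such bulk samples, fewer cells of a type and less RNA per cell cannot be told apart.

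Mural transcripts were present in every library, but not all markers were equally well detected. Rgs5, a regulator of G protein signalling and a leading pericyte marker, stood at 8795 ± 2498 normalised counts in PnocCre and 7585 ± 2162 in Wildtype. Pdgfrb, the receptor that recruits pericytes, stood at 1373 ± 133 and 1102 ± 308. On a per-length scale, in normalised counts per kilobase of gene model and over all 10 libraries, Myl9 had the highest mean level of the members at 577 ± 147 (SD, n = 10) and Mcam followed at 543 ± 136. Each of these neighbours was the higher one in 5 of the 10 libraries, so their order was not resolved. Acta2 came next at 386 ± 75.6 and Cspg4 at 226 ± 71.3. Notch3 at 138 ± 32.1 and Smtn at 132 ± 27.9 did not separate either, each again being higher in 5 libraries, while Smtn exceeded Myh11 (99.6 ± 18.5) in all 10. Lmod1 reached 20.0 ± 8.05 and Cnn1 11.8 ± 3.96. Tagln was last at 3.10 ± 1.84.

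The low level of Tagln stood apart from the rest of the contractile group. Tagln encodes transgelin (SM22), an actin-binding protein that is an early and usually abundant marker of smooth muscle. It lies on chromosome 9 at 45840917 to 45847356 of GRCm39, minus strand, and its values were 10.4, 9.08, 1.80, 5.08 and 5.01 normalised counts in PnocCre replicates 1 to 5 and 10.7, 9.68, 6.33, 2.33 and 1.16 in Wildtype replicates 1 to 5. These correspond to 1 to 13 whole reads per library, and the 2 genotypes overlapped over nearly their whole range. Per length, Tagln was at 0.230% to 1.38% of Acta2. With a mean of 6.27 ± 3.46 in PnocCre and 6.04 ± 4.26 in Wildtype, it fell under the minimum of 10 normalised counts and was the 1 member of 10 that was not tested. In a fit with no minimum its log2 fold change was 0.17 ± 0.56 (SE, limma, adjusted p = 0.918). Tagln shares 3627 bases with Gm48529, a long noncoding RNA on the opposite strand, and 108 bases with Pcsk7, a protease gene also on the opposite strand. Reads may have been counted with or without strand, a setting not given in the sources used here, and whether it bears on the count of Tagln was not tested. Its close relative Tagln2, which is not restricted to muscle, stood at 939.5 ± 349.7 against 749.95 ± 177 normalised counts.

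None of the other 9 members passed the test. limma-trend on log2(value + 1), with Benjamini-Hochberg adjustment over 15301 genes and a threshold of 0.05, called 0 of 9 members, and it called 0% of all genes tested, of which 2603 had an unadjusted p under 0.05. At an unadjusted p under 0.05, 2 of 9 members, Smtn and Lmod1, were higher in PnocCre, against 8.94% of all genes in that direction. A log2 fold change above 0 was found for 8 of 9 members and for 49.3% of all genes. The median log2 fold change was 0.21 for the members and -0.0062 for all genes tested. DESeq2 on the recovered reads also called none of the members, against 3.44% of the genes with an adjusted p there, and edgeR's quasi-likelihood test called none of them and no other gene. The values of every member by library show how much the 2 genotypes overlapped.

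**Figure D1:**
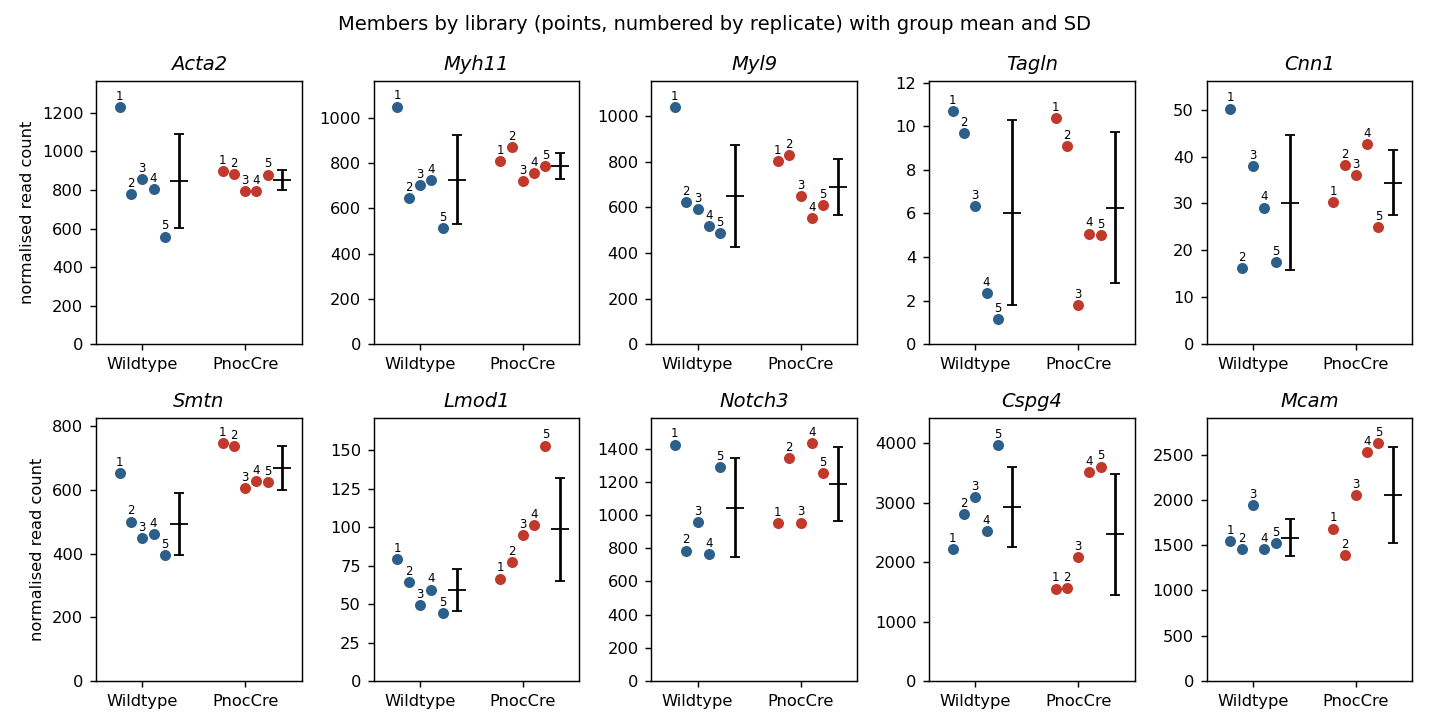
Normalised read counts of the 10 members in each library, numbered by replicate, with the mean and SD of the 5 Wildtype (blue) and 5 PnocCre (red) libraries beside the points. Wildtype replicate 1 is the highest Wildtype library for Acta2, Myh11, Myl9, Cnn1, Smtn, Lmod1, Notch3 and Tagln, and no member has groups that are fully apart.

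Acta2 and Myh11, the alpha actin and heavy chain of the smooth muscle thin and thick filaments, had close means in the 2 genotypes. Acta2 (chromosome 19, 34218490 to 34232990, minus strand, GRCm39) had 898, 883, 793, 795 and 880.1 normalised counts in PnocCre replicates 1 to 5 and 1230.1, 778, 855, 803 and 558 in Wildtype replicates 1 to 5. The 5 PnocCre values all lay inside the range of the Wildtype values, whose highest and lowest libraries were replicates 1 and 5. The means were 849.8 ± 51.4 and 845 ± 244 (SD, n = 5), and the log2 fold change was 0.053 with a 95% interval of -0.31 to 0.42 (limma, adjusted p = 0.885). Myh11 (chromosome 16, 14012399 to 14109236, minus strand) had 807, 869, 718, 756 and 785 normalised counts in PnocCre and 1048, 644.5, 703, 725 and 512 in Wildtype. Wildtype replicates 1 and 5 were again the extremes and enclosed every PnocCre library. The means were 787 ± 56.7 and 726 ± 198, and the log2 fold change was 0.15 (95% interval -0.19 to 0.50, limma, adjusted p = 0.624). The coefficient of variation was 6.05% in PnocCre and 28.8% in Wildtype for Acta2, and 7.21% and 27.2% for Myh11. No test was made of these differences in spread.

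Myl9, the regulatory light chain of smooth muscle myosin whose phosphorylation starts contraction, behaved in a similar way. On chromosome 2 (156617340 to 156623578, plus strand), it had 802, 831, 651, 551 and 611 normalised counts in PnocCre and 1038, 622, 592, 517 and 487 in Wildtype. PnocCre replicates 1 and 2 and Wildtype replicate 1 stood above the other 7 libraries, and the genotypes overlapped. The means were 689 ± 122 and 651 ± 223, with a log2 fold change of 0.12 (95% interval -0.31 to 0.55, limma, adjusted p = 0.761). Mylk, the kinase that phosphorylates this light chain, had 742 ± 42.2 and 726 ± 52.2 normalised counts and a log2 fold change of 0.033 ± 0.086 (SE, adjusted p = 0.859).

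Cnn1, calponin, which binds actin and restrains the myosin ATPase, was the scarcest member that could be tested. It lies on chromosome 9 (22010512 to 22020926, plus strand) and had 30.3, 38.1, 36.1, 42.7 and 25.0 normalised counts in PnocCre and 50.2, 16.1, 38.0, 29.1 and 17.4 in Wildtype. Wildtype replicate 1 was the highest and Wildtype replicates 2 and 5 the lowest of all 10 libraries. The means of 34.4 ± 6.88 and 30.2 ± 14.3 gave a log2 fold change of 0.29, whose 95% interval of -0.42 to 1.00 was the widest of the 9 (limma, adjusted p = 0.651). The broadly expressed calponins Cnn2 and Cnn3 had log2 fold changes of 0.59 and 0.44 (limma, adjusted p = 0.380 and 0.348).

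Smtn and Lmod1 had the largest log2 fold changes of the contractile members. Smtn, smoothelin, a filament protein of differentiated contractile smooth muscle, lies on chromosome 11 (3467523 to 3490612, minus strand) and had 748, 737, 607, 628 and 624 normalised counts in PnocCre and 653, 500.3, 449, 460.1 and 396 in Wildtype. Wildtype replicate 1 lay above 3 PnocCre libraries, and the other 4 Wildtype libraries lay below all 5 PnocCre libraries. The means were 669 ± 68.0 and 492 ± 97.4 and the fold change was 1.37, with a 95% interval of 1.12 to 1.68. Its unadjusted p of 0.00512 became 0.162 after adjustment over all genes in limma, 0.176 in edgeR and 0.0764 in DESeq2, so Smtn missed the threshold in each. Smtn holds on its opposite strand Gm11946, a long noncoding RNA at 4.36 mean normalised counts in PnocCre and 2.32 in Wildtype.

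Lmod1, leiomodin 1, which seeds new actin filaments in smooth muscle, lies on chromosome 1 (135252545 to 135295803, plus strand). Its levels were 66.6, 77.2, 94.7, 102 and 153 normalised counts in PnocCre and 79.0, 64.6, 49.6, 59.4 and 44.2 in Wildtype. PnocCre replicate 5 was far above the rest, and only Wildtype replicate 1 exceeded any PnocCre library. The means of 98.6 ± 33.5 and 59.3 ± 13.6 gave a fold change of 1.62 with a 95% interval of 1.12 to 2.34. The unadjusted p of 0.0148 became 0.200 in limma, 0.193 in edgeR and 0.101 in DESeq2. Lmod2, the leiomodin of striated muscle, was at 246 ± 233 against 17.7 ± 24.7 normalised counts, and it was 0 in Wildtype replicates 1 and 5.

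Among the surface markers, Mcam had the larger mean and Cspg4 the smaller mean in PnocCre, and neither passed the test. Mcam (CD146), an adhesion receptor of pericytes, smooth muscle and endothelium, lies on chromosome 9 (44045766 to 44054024, plus strand). Its values were 1682, 1394, 2049.5, 2528 and 2629 normalised counts in PnocCre and 1547, 1455, 1939, 1454 and 1519 in Wildtype. PnocCre replicates 3, 4 and 5 were above all Wildtype libraries, while PnocCre replicate 2 was below them all. The means were 2056 ± 531 and 1583 ± 203, and the log2 fold change was 0.35 (95% interval -0.028 to 0.72, limma, adjusted p = 0.322).

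Cspg4, the NG2 proteoglycan of pericytes, which immature oligodendrocyte-lineage and some muscle-associated cells also carry, lies on the same chromosome (56772317 to 56807154, plus strand). Its levels were 1554, 1569, 2087, 3515 and 3606 normalised counts in PnocCre and 2222, 2805, 3098, 2517 and 3976 in Wildtype. PnocCre replicates 1, 2 and 3 lay below every Wildtype library, and PnocCre replicates 4 and 5 lay above all Wildtype libraries but replicate 5. The coefficient of variation was therefore 41.5% in PnocCre and 23.0% in Wildtype. The means of 2466 ± 1022 and 2924 ± 672 gave a log2 fold change of -0.32, the 1 value below 0 among the 9 (95% interval -0.88 to 0.25, limma, adjusted p = 0.532).

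Notch3, the Notch receptor of arterial smooth muscle and pericytes, lies on chromosome 17 (32339794 to 32385826, minus strand). It had 951, 1342, 955, 1435 and 1252.5 normalised counts in PnocCre and 1424, 785, 959.9, 763 and 1287 in Wildtype. Both genotypes were split into high and low libraries that interleaved. The means of 1187 ± 223 and 1044 ± 299 gave a log2 fold change of 0.21 (95% interval -0.21 to 0.63, limma, adjusted p = 0.577). Of 19 measured Notch ligands, other receptors and targets, 15 had a log2 fold change above 0, as did 49.3% of all genes, and 4 below. The median was 0.20 (0.11 without PnocCre replicate 2). limma called none, against 0% of all genes, and DESeq2 called none, against 3.44%. An unadjusted p under 0.05 in limma picked none, against 2603 of 15301 genes. The smallest p values belonged to Maml2, a coactivator (log2 fold change 0.46, adjusted p = 0.315), Hes1, a target gene (0.43, adjusted p = 0.339), the receptor Notch2 (0.29, adjusted p = 0.395) and the endothelial ligand Dll4 (0.32, adjusted p = 0.397), all by limma.

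**Figure D2:**
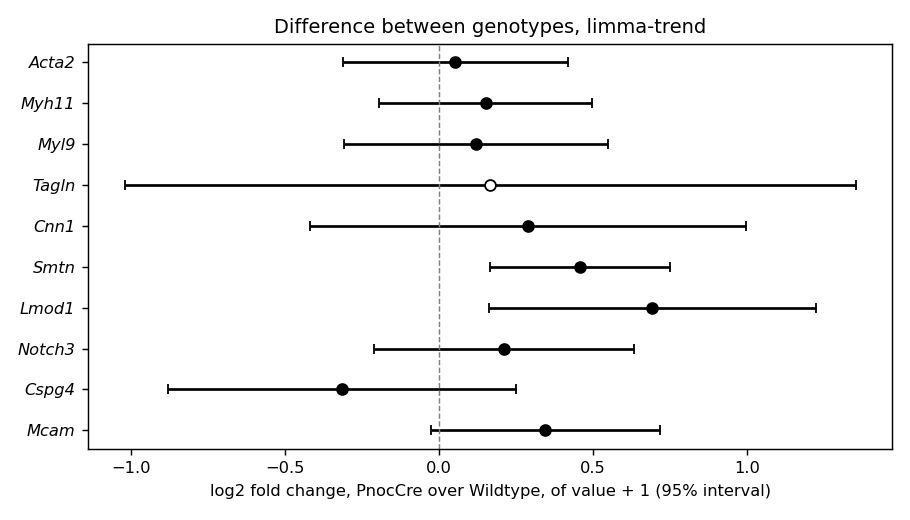
Log2 fold change of PnocCre over Wildtype for each member with its 95% interval from limma-trend on log2(value + 1). The intervals of Smtn and Lmod1 lie above 0 before adjustment over all genes, Cspg4 is the only point below 0, and Tagln (open circle) is from a fit with no minimum level.

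Wildtype replicates 1 and 5 shaped the contractile results. Averaged over the 6 contractile members that were tested, Wildtype replicate 1 deviated by 0.60 on the log2 scale from the mean of its genotype and Wildtype replicate 5 by -0.45, while the other 8 libraries lay between -0.13 and 0.086. No member had fully separate groups, against 4.40% of all genes tested. Without Wildtype replicate 1, Smtn and Lmod1 had no overlap between genotypes and were both higher in PnocCre, where 7.95% of all genes had none. For both genes that library was the only Wildtype library within the PnocCre range, so leaving it out had to separate the groups. Without that library the log2 fold change was 0.56 for Smtn (limma, adjusted p = 0.115) and 0.80 for Lmod1 (adjusted p = 0.195). Acta2 moved to 0.20 without Wildtype replicate 1 and to -0.085 without Wildtype replicate 5, the 1 library whose removal turned its direction. Without Wildtype replicate 1 or replicate 5, the log2 fold change was 0.29 or 0.036 for Myh11, 0.30 or 0.030 for Myl9 and 0.50 or 0.13 for Cnn1. Myl9 was at 0.061 and 0.049 without PnocCre replicates 1 and 2, 0.20 without PnocCre replicate 4 and 0.052 without Wildtype replicate 4. Cnn1 was at 0.10 without Wildtype replicate 2, and Lmod1 was at 0.52 without PnocCre replicate 5. Notch3 was at 0.33 without Wildtype replicate 1, 0.12 and 0.11 without Wildtype replicates 2 and 4, and 0.14 without PnocCre replicate 4. Cspg4 was at -0.48 without PnocCre replicate 5, -0.17 and -0.18 without PnocCre replicates 1 and 2, and -0.20 without Wildtype replicate 5.

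**Figure D3:**
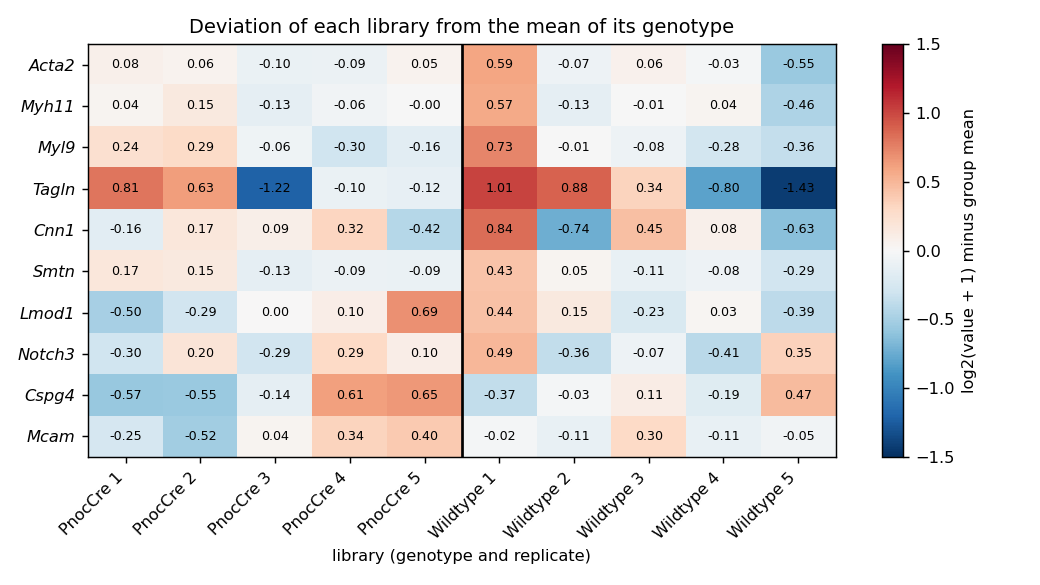
Deviation of log2(value + 1) of each member in each library from the mean of its genotype, with red above and blue below. Wildtype replicate 1 is above the mean for every contractile gene and Wildtype replicate 5 below it, whereas Cspg4, Lmod1 and Mcam range most widely among the PnocCre libraries after Tagln.

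Some contractile genes followed each other across the 10 libraries, with Wildtype replicates 1 and 5 as the extremes. Pearson's r between the deviation of a gene and the mean deviation of the other tested contractile members was 0.97 for Myh11, 0.96 for Acta2, 0.81 for Smtn, 0.74 for Myl9 and 0.59 for Cnn1 over 10 libraries that share the same size factors. It was lower for Lmod1 (0.26), and among the surface markers it was 0.31 for Notch3, -0.017 for Mcam and -0.43 for Cspg4. With Wildtype replicates 1 and 5 set aside, r remained 0.73 for Myh11 and 0.51 for Acta2 and became -0.14 for Smtn, -0.26 for Myl9, -0.53 for Cnn1 and -0.77 for Lmod1. For the surface markers it was then 0.68 for Notch3, -0.13 for Mcam and -0.10 for Cspg4. So 4 of the 6 tested contractile members had an r below 0 without these libraries. Both libraries were picked after their values were seen, as the extremes of the contractile mean itself. Setting them aside removes most of the range of that mean. A lower r without them therefore cannot tell whether the genes go together. Among 11786 genes whose mean reached 50 normalised counts, the genes outside the set with the most similar deviations were Emp2, an epithelial membrane protein (r = 0.95), Psmd13, a proteasome subunit (0.93), and Nbl1, a secreted antagonist of bone morphogenetic proteins (0.92). Gper1, Rnase4, Dpcd, Syt7, Dcn, Oaz2 and Plxdc2 followed with r of 0.91 to 0.88. Without Wildtype replicates 1 and 5, r was 0.78 for Emp2, 0.81 for Gper1 and 0.77 for Plxdc2 and was 0.36 for Psmd13 and 0.35 for Rnase4.

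The same 3 libraries were highest for Acta2, Myh11, Myl9 and Smtn, namely PnocCre replicates 1 and 2 and Wildtype replicate 1. Rgs5 was also highest in them, with 11885, 10871 and 11437 normalised counts against 6249 to 8256 in the other 7 libraries. Pdgfrb had 1538, 1487 and 1561 normalised counts there against 805 to 1335 elsewhere. The summed level of the 16 endothelial markers was 53590, 47029 and 48610 in these libraries and 26441 to 33788 in the rest, and Pecam1, the endothelial adhesion molecule, had 4910, 4471.5 and 5057 against 2680 to 3291. The surface members did not share this order. The summed level of Notch3, Cspg4 and Mcam was 4186 and 4304 normalised counts in PnocCre replicates 1 and 2, the lowest of all 10 libraries, and 5194 in Wildtype replicate 1. Cspg4 had its lowest PnocCre values and its lowest Wildtype value in these 3 libraries. The part of vessel content in these levels was not tested.

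Lmod1 and Cspg4 varied within PnocCre in another way. Ranked by level, the 5 PnocCre libraries had the same order for Lmod1, for Cspg4 and for the summed skeletal muscle markers, which were 11099, 30642, 54925, 115607 and 209518 normalised counts in replicates 1 to 5. Mcam had that order except that its 2 lowest libraries were swapped, while Rgs5 and the endothelial sum had the reverse order. In Wildtype, where the muscle sum was 4075, 3965, 29041, 27435 and 3481, none of these genes had the order of the muscle sum. When limma took the mean skeletal muscle level of each library as a covariate, the log2 fold change was 0.10 for Mcam (adjusted p = 0.800), 0.53 for Lmod1 (adjusted p = 0.355), -0.55 for Cspg4 (adjusted p = 0.359) and 0.60 for Smtn (adjusted p = 0.157). It was 0.40 for Myl9, 0.41 for Notch3, 0.16 for Myh11, 0.11 for Cnn1 and 0.045 for Acta2. The endothelial median moved from 0.24 to 0.65. The muscle level was partly confounded with genotype, and the SE of Acta2 grew from 0.17 to 0.24. Acta1 is the skeletal alpha actin and a near-identical relative of Acta2. Wildtype replicate 1 had 1230.1 normalised counts of Acta2 and 3.29 of Acta1, and PnocCre replicate 5 had 880.1 and 50000.1. In Wildtype replicates 2 to 5 the 2 genes had the same order. Acta1 had 64.6, 5179, 4609 and 9.30 normalised counts there, and Acta2 had 778, 855, 803 and 558. Whether Acta2 goes with Acta1 over all libraries was not tested.

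**Figure D4:**
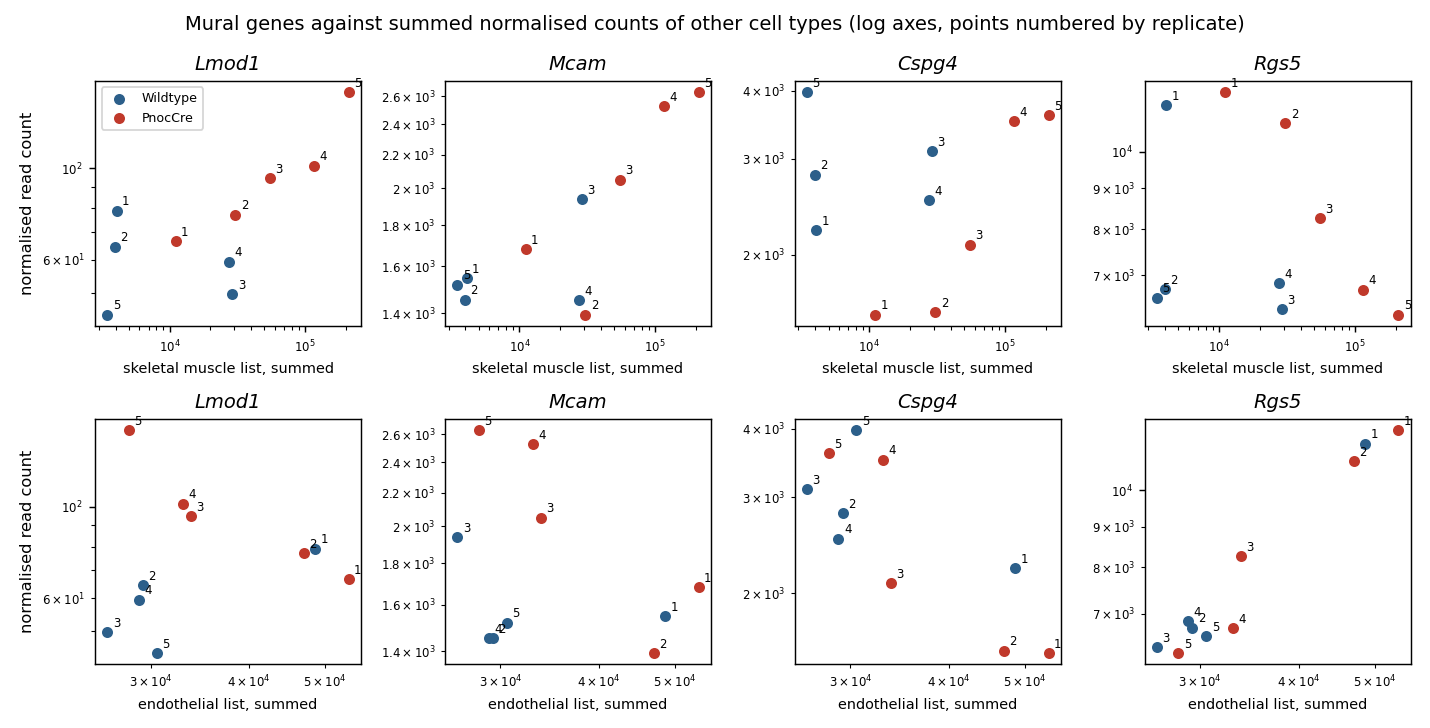
Normalised read counts of Lmod1, Mcam, Cspg4 and Rgs5 against the summed skeletal muscle markers (upper row) and endothelial markers (lower row) of each library, on log axes, with Wildtype in blue, PnocCre in red and the replicate number at each point. Lmod1 and Cspg4 climb with the muscle sum among the PnocCre libraries, and Rgs5 is highest in the 3 libraries with the highest endothelial sum.

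Leaving libraries out changed the call for 1 member. PnocCre replicates 4 and 5 held the most skeletal muscle transcripts and also the 2 highest Cspg4 values of PnocCre, and without both of them the log2 fold change of Cspg4 was -0.74 ± 0.18 (SE, limma, adjusted p = 0.0371). That fit called 6.65% of all genes lower in PnocCre. Cspg4 was also the 1 member whose groups then did not overlap, as for 18.8% of all genes. The 2 libraries were picked after their values were seen, so the choice itself lowers the PnocCre mean of Cspg4. The same fit gave 0.52 for Smtn (adjusted p = 0.0587), 0.43 for Lmod1 and 0.10 for Mcam. Without Wildtype replicates 1 and 5, no member was called, and Smtn and Lmod1 had separate groups, against 11.2% of all genes. These 2 libraries were also picked after their values were seen, and leaving out Wildtype replicate 1 was enough to separate both genes. When reads were scaled to all recovered reads in place of the deposited size factors, the median of all genes moved to 0.19 and that of the members to 0.40. No member was called on that scale, Lmod1 alone had separate groups against 4.57% of all genes, and Cspg4 stayed below 0 at -0.12.

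Sequences of the promoters of Acta2 and Myl9 are shown because they hold the element through which serum response factor acts on contractile genes. RefSeq promoters on build GRCm38.p6 were at hand for 8 of the 10 members, and Tagln and Myh11 had none in the table used. In the 250 bases before the annotated start, on both strands, the exact CArG box was found in Myl9 only, and it was found in 1.47% of 32851 promoters. A looser form with at most 1 G or C in the core was found in Acta2 and Myl9 and in 8.59% of promoters. Capitals mark the looser form, 5′ to 3′ along the coding strand, for Acta2 at chr19:34255374-34255623 (minus strand) and Myl9 at chr2:156775214-156775463 (plus strand).
Acta2: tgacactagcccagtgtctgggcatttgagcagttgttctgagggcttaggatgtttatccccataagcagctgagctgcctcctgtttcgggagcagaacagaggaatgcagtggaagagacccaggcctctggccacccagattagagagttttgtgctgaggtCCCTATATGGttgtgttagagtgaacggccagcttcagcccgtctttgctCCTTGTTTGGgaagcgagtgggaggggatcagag
Myl9: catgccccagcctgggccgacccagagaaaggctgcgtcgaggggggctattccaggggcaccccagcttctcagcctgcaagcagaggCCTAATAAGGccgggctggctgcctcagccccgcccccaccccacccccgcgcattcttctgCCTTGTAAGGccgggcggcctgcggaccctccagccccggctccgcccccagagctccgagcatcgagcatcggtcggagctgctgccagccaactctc
In Acta2 the matches CCCTATATGG and CCTTGTTTGG began 84 and 34 bases before the annotated start, and in Myl9 the matches CCTAATAAGG (the exact form) and CCTTGTAAGG began 161 and 99 bases before it. The MCAT element, GGAATG, which TEAD factors bind, was present in Acta2, Lmod1 and Smtn and in 12.6% of promoters. The letters TGGGAA, a core of sites for the Notch effector RBPJ, were present in Acta2 and Smtn and in 21.6%, and in Acta2 they overlapped the second marked match. These matches describe the letters of the windows and do not show binding.

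Of the regulators of these promoters, Srf, serum response factor, stood at 760 ± 208 normalised counts in PnocCre and 869 ± 119 in Wildtype, with a log2 fold change of -0.23 (limma, adjusted p = 0.530). Myocd, its smooth muscle partner myocardin, was at 2.92 ± 2.70 and 5.58 ± 1.19 normalised counts and was not tested. Of 19 measured regulators, 13 had a log2 fold change above 0, as did 49.3% of all genes, and 6 below, with a median of 0.24. The median was 0.12 without PnocCre replicate 4, and without PnocCre replicates 4 and 5 it was 0.061, with 10 above 0 and 9 below. limma called none of them, and 4 were higher at an unadjusted p under 0.05, against 8.94% of all genes. DESeq2 called Prrx1, a homeobox factor of mesenchymal cells, and Gata6, a factor of vascular smooth muscle and other mesodermal cells, both higher in PnocCre, where it called 2.20% of all genes higher. In simulated data of this design, 28 of 154 DESeq2 calls were false, against 4 of 92 of limma. Those counts were drawn independently for each gene, with 200 changed genes and no shift in cell types, so these shares need not hold here. Prrx1 had 234 ± 62.1 against 97.5 ± 26.8 normalised counts (DESeq2 adjusted p = 2.35e-04, limma adjusted p = 0.101), and Gata6 had 51.5 ± 11.6 against 24.2 ± 10.7 (0.0422 and 0.155). Fhl2, a cofactor of serum response factor, had a limma log2 fold change of 1.04 (adjusted p = 0.245) and Elk4, a ternary complex factor, one of 0.42 (adjusted p = 0.294).

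Beyond the members, 33 measured genes of the wider smooth muscle apparatus had a median log2 fold change of 0.42. Of these, 27 lay above 0, as did 49.3% of all genes, and 6 below. The list includes genes of striated muscle, such as Lmod2 and Des, and Des is also on the skeletal muscle list. Through PnocCre replicates 1 to 5 the summed level of the list rose from 29074 to 68298 normalised counts, the order of the skeletal muscle sum. limma called none of the 33. At an unadjusted p under 0.05, 14 were higher, against 8.94% of all genes, and 1 was lower. DESeq2 called 5, all higher in PnocCre, where it called 2.20% of all genes higher. These were Nexn, Tpm1, Sncg, Pdlim3 and Synm. Nexn, an actin-binding protein of striated and smooth muscle, had 239 ± 167 against 44.4 ± 16.5 normalised counts (DESeq2 adjusted p = 1.04e-04, limma adjusted p = 0.120). Sncg, a synuclein of nerve and fat that also marks vascular smooth muscle, had 870.4 ± 501 against 334 ± 159 (0.00854 and 0.130). Pdlim3 and Tpm1, which serve striated as well as smooth muscle, had limma log2 fold changes of 2.29 and 1.09 (adjusted p = 0.151 and 0.163). Nexn and Lmod2 were highest in PnocCre replicate 5, at 472 and 585 normalised counts, the library with the highest skeletal muscle sum, and the part of skeletal muscle in this list was not tested.

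The wider pericyte list of 28 measured genes had a median log2 fold change of 0.35 (0.19 without PnocCre replicate 1). Of these, 25 lay above 0, as did 49.3% of all genes, and 3 below. Neither limma nor DESeq2 called any of them, against 0% and 3.44% of all genes. At an unadjusted p under 0.05 in limma 6 were higher, against 8.94% of all genes. Rgs5 had a log2 fold change of 0.21 (limma, adjusted p = 0.624) and Pdgfrb 0.35 (adjusted p = 0.299). The smallest p values were those of Tbx2, a T-box factor (260.5 ± 56.5 against 164 ± 41.8 normalised counts, limma adjusted p = 0.161), Art3, an ecto-enzyme family member that marks pericytes (2047 ± 172 against 1606 ± 205, adjusted p = 0.167), Tbx18, a factor of mural cells (78.2 ± 13.4 against 47.7 ± 19.1, adjusted p = 0.183), and Gja4, the connexin of arterial vessels (221 ± 54.8 against 145 ± 31.7, adjusted p = 0.190).

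Among 13 measured signals that recruit and hold pericytes, 10 had a log2 fold change above 0, as did 49.3% of all genes, and 3 below. The median was 0.18 (0.27 without PnocCre replicate 3 and 0.28 without Wildtype replicate 3). Angpt2, an angiopoietin that loosens the contact of pericytes with endothelium, had 53.6 ± 7.51 against 29.2 ± 6.71 normalised counts, with a log2 fold change of 0.87 (limma adjusted p = 0.128, DESeq2 adjusted p = 0.0186). It was the only gene of the list called by DESeq2, which called 2.20% of all genes higher. limma called none, and 2 were higher at an unadjusted p under 0.05, against 8.94% of all genes. S1pr1, the endothelial sphingosine-1-phosphate receptor, had a log2 fold change of 0.50 (limma, adjusted p = 0.270), and Angpt1 and Pdgfa had 0.38 and 0.35 (adjusted p = 0.322 and 0.329).

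**Figure D5:**
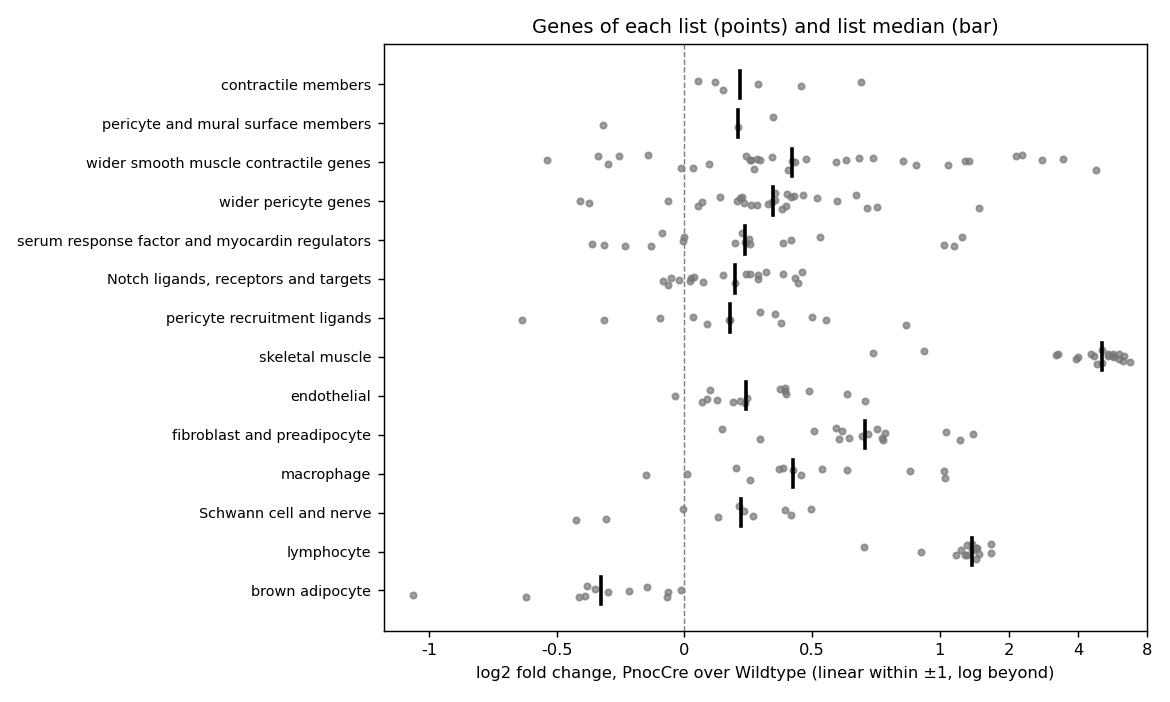
Log2 fold change of PnocCre over Wildtype for each measured gene of 14 lists (points) with the list median (bar). The axis is linear between -1 and 1 and logarithmic beyond. The contractile members have a median of 0.22, the wider contractile list one of 0.42 and the skeletal muscle list one of 5.07 (2.94 in DESeq2 and 2.97 in edgeR), while every brown adipocyte marker lies below 0 on this scale (4 lie above it after scaling to all recovered reads).

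The lists of other cell types outside the adipocyte also had medians above 0. The median log2 fold change was 0.24 for 16 endothelial markers, 0.71 for 16 fibroblast and preadipocyte markers and 0.42 for 13 macrophage markers. It was 0.22 for 10 Schwann cell and nerve markers and 1.38 for 16 lymphocyte markers. limma called none of these genes. Of the endothelial, fibroblast and macrophage markers, 2, 11 and 7 were higher at an unadjusted p under 0.05, against 8.94% of all genes, and DESeq2 called 0, 7 and 3 higher, against 2.20%. The endothelial median was 0.14 without PnocCre replicate 1 and 0.39 without Wildtype replicate 1, the Schwann cell median ran from -0.011 (without PnocCre replicate 2) to 0.42 (without PnocCre replicate 3) with a library left out, and the lymphocyte median was 0.52 without PnocCre replicate 2. The 6 contractile members tested had a median of 0.22 and lay between 0.053 and 0.69. The part of tissue composition in the values of the members was not tested.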

How the data were processed

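PolyA RNA of 5 PnocCre and 5 Wildtype samples was sequenced in strand-specific (dUTP) libraries, per the labels' protocols. Reads were aligned to build GRCm39 and counted with tools that the submitters' processing notes name as HISAT2 2.0.5, featureCounts 1.5.0-p3 and DESeq2. Not given in the sources used here are the annotation and whether counting used strand. The deposited signal of each library is the read count of a gene that the authors divided by 1 size factor, called normalised read count here. Dividing by the step of each library gave whole reads for 100% of the values at a tolerance of 0.01 reads, with 21304238 to 29171787 reads per library. The deposited log2 fold changes and p-values of the authors' comparison were compared with DESeq2 run here. Their adjusted p for Smtn, 0.0764, equals it. Gene coordinates and gene lengths are other deposited columns, per the file headers. The length was used for levels per kilobase.

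Genes with a mean of at least 10 were tested with limma-trend (limma 3.58.1, R 4.3.3), with robust moderation, on log2(value + 1), with all 10 libraries, 2-sided and with no covariate. edgeR 4.0.16, DESeq2 1.42.0 and limma-voom on the recovered reads were alternatives, as were other scalings, filters and pseudocounts, library weights, a skeletal muscle covariate and each library left out. Rescaling to all recovered reads and leaving out pairs of libraries were chosen after seeing the data. Replicate numbers were given in accession order. No 2 libraries of a group were duplicates, with a chi-square per degree of freedom of at least 17.8. The members, lists and alternatives were chosen with earlier results of these data known. The rule for named genes took the members, 6 mural, regulator and endothelial genes, the 4 smallest p of each of 6 wider lists and 2 of each list of another cell type, 10 genes most alike the contractile members, and paralogs (65 genes outside the members). Tpm1 and Synm were named after their values were seen. On simulated counts of 15301 genes with this design, limma recovered 24% of genes changed 1.5-fold and 64% of those changed 2-fold with 4 false calls of 92, and DESeq2 recovered 47% and 79% with 28 false calls of 154. The single-list results of 1 of the 6 wider lists are not reported here. Promoters came from RefSeq.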

Additional observations from a re-analysis of the deposited data

Results flagged for a closer look

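Mcam in Wildtype replicate 3 stood apart from its group. It had 1939 normalised counts, while the other 4 Wildtype libraries lay between 1454 and 1547. Its gap to the nearest library was 0.784 of the range of the group on the log2 scale, above the critical value of 0.71 for 5 samples. It was the only value marked in this way among 20 groups, and chance marks about 1 in 20. Wildtype replicate 3 also had the highest skeletal muscle sum of its genotype, 29041 normalised counts. Wildtype replicate 4 had a sum of 27435 and 1454 of Mcam. The part of skeletal muscle in the marked value was not tested.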

How the results depend on the processing

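There were 23 alternatives, 20 planned with earlier results of these data known and 3 chosen after seeing the fits here. Under them, 205 of 207 values of single members kept their direction and their side of the threshold. The exceptions were Acta2, at -0.085 without Wildtype replicate 5 (range -0.085 to 0.20 with a library left out), and Cspg4, at -0.74 and called without PnocCre replicates 4 and 5. The count of members called was then 1 and was 0 in the other settings. With a library left out, the median of the members ran from 0.12 to 0.33, Myh11 from 0.036 to 0.29, Myl9 from 0.030 to 0.30, Cnn1 from 0.10 to 0.50, Notch3 from 0.11 to 0.33 and Cspg4 from -0.48 to -0.17. Over all genes, limma and edgeR called 0, DESeq2 575, library quality weights 53, the fits without a library 0 to 1 (1 without PnocCre replicate 3) and the fit without PnocCre replicates 4 and 5 called 1503. Of 133 wider-list genes the counts were 0 but in 3 settings. DESeq2 called 9, against 3.44% of all genes, and the fit with quality weights 1, against 53 of 15301 genes. Without PnocCre replicates 4 and 5 the count was 13, against 1503 of 15289 genes. Members with separate groups numbered 0 with all 10 libraries, against 4.40% of all genes. They numbered 0 to 2 without a library (2 without Wildtype replicate 1, against 7.95% of all genes). Without Wildtype replicates 1 and 5 they numbered 2 (11.2% of all genes) and without PnocCre replicates 4 and 5 they numbered 1 (18.8%). After scaling to all recovered reads they numbered 1 (4.57%). The cause of these shifts was not tested. No paired analysis was made. The replicate numbers were given here in accession order and pair no samples. The library names carry other numbers, whose meaning no label states, so pairs or shared cohorts across genotypes cannot be told from them. With 5 libraries per genotype, limma recovered 24% of simulated 1.5-fold changes. Changes of the size seen for Smtn could therefore be missed. The simulated counts were drawn independently for each gene with no shift in cell types. The share pools genes of unlike spread, so it is not an estimate for Smtn or another single member. Tagln was too low to test.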
